A study of Mus musculus with 2 samples.

Results

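The genes described here encode the ABC pumps and the organic ion and nucleoside carriers that move drugs, bile salts, sterols and nucleosides across cell membranes. They were taken from the deposited tables by symbol. All names of the ABC subfamilies A to G, the Slco family, and the Slc22, Slc28, Slc29 and Slc47 families were included, which gave 100 of the 23284 genes listed. Of the 100, 50 were ABC genes and 50 were Slco or Slc genes. The cells were small intestinal epithelial cells, and their mRNA had been sequenced. The knockout library came from mice with the genotype miR-215-/-, which lack the epithelial microRNA miR-215, and the wild-type library came from mice with the genotype miR-215+/+. There was 1 library per genotype. How many animals stand behind a library, their strain and age, and which bases of the locus were removed: the sources used here do not give these. No difference therefore has a replicate check and no p-value is printed. The words "higher" and "lower" are said of the knockout library set against the wild-type one.

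ABC transporters use ATP to move their substrates out of the cytosol, or from one leaflet of a membrane to the other. In the enterocyte, the absorptive cell of the gut, P-glycoprotein, BCRP and MRP2 sit in the apical membrane and return drugs and conjugates to the gut lumen, while ABCG5 and ABCG8 return plant sterols and cholesterol. The SLC carriers work without ATP hydrolysis of their own. OATP, OCT and OCTN carriers take up organic anions, organic cations and carnitine, and the CNT and ENT carriers move nucleosides.

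Levels are in FPKM, which divides the fragments of a gene by its transcript length and by library depth, so levels of different genes can be set beside each other per length. From the steps between low values, 1 FPKM over a transcript of 2 kb rested on about 18.5 fragments in the knockout library and 17.8 in the wild-type library. Intervals below are exact 95% Clopper-Pearson intervals of the ratio of knockout to wild-type FPKM, made from such estimated fragment numbers. Such intervals hold the error of counting alone and nothing of the variation among mice, and PCR copies cannot be told from separate molecules. The labelled tissue was checked against 11 enterocyte genes, and all 11 were abundant in both libraries, among them the brush border gene Vil1 at 1566 FPKM in the knockout library and 1600 in the wild-type library. Mir215 was listed at 0 in the knockout library and at 137 FPKM in the wild-type library, which is the direction of the genotype labels. Because mRNA libraries do not capture mature microRNAs, these values are not levels of mature miR-215. In a bulk library, fewer cells of a type and less RNA per cell cannot be told apart.

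Many of these genes were silent or nearly so, as were many of all genes listed. In one library or the other, 44 of the 100 genes reached 1 FPKM and were compared, and 56 did not. Of those 56, 26 were listed at 0 in both libraries. Of all 23284 genes, 11504 reached 1 FPKM in either library and 6893 were listed at 0 in both. At or under the floor of 3 estimated fragments in both libraries were 38 of the 100. For a transcript of 2 kb, 3 fragments correspond to 0.162 FPKM in the knockout library and 0.168 in the wild-type library. That floor was a chosen limit, and values under it, which rest on fewer fragments, were still listed. By role, 9 of 15 efflux pumps, 16 of 48 uptake carriers, 6 of 20 sterol and lipid ABC transporters, 8 of 9 intracellular ABC transporters and 5 of 8 other ABC proteins reached 1 FPKM.

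Of the 26 genes at 0 in both libraries, 14 were Slc22 genes of chromosome 19 or Slco genes of chromosome 6, which include carriers known from liver and kidney. On chromosome 19, 10 Slc22 genes are annotated, and 9 were listed at 0 in both libraries, among them Slc22a6 and Slc22a8, the renal organic anion exchangers OAT1 and OAT3. The remaining one, the urate carrier gene Slc22a12, was listed at 0 in the knockout library and at 0.0502 FPKM in the wild-type library. On chromosome 6, 5 of 6 Slco genes were listed at 0 in both libraries, among them Slco1b2, the hepatic OATP carrier. Slc22a2 (the renal cation carrier OCT2), Slc22a7 and the bile salt export pump gene Abcb11 were also listed at 0 in both.

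**Figure D1:**
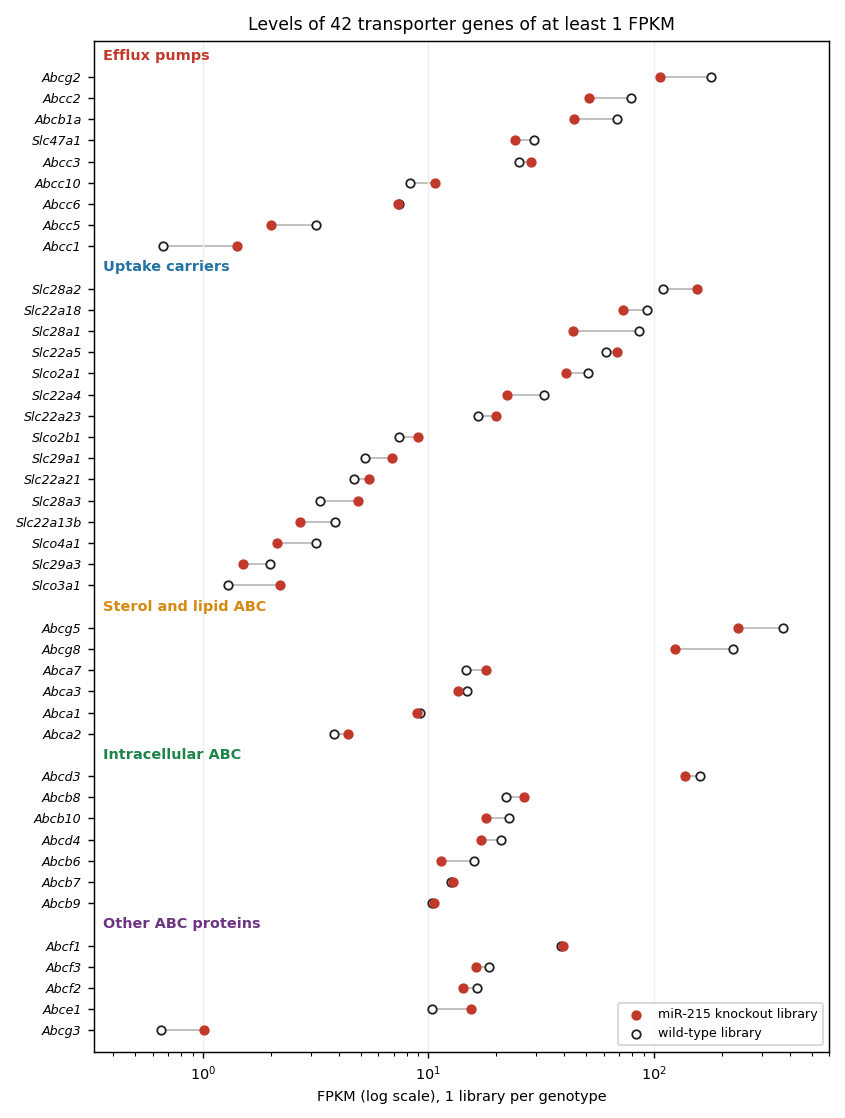
FPKM (log scale) of 42 of the 44 compared genes, grouped by role and ordered by mean level, with filled points for the knockout library, open points for the wild-type library and 1 library per genotype. Abcg5 was the highest member in both libraries, at 236 and 374 FPKM, and the knockout points of Abcg2, Abcc2, Abcb1a, Abcg5, Abcg8 and Slc28a1 lie clearly left of the wild-type points.

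None of the 44 genes was 2-fold apart on the log2(FPKM + 1) scale, a scale that understates the difference of low genes. Of all 11504 genes that reached 1 FPKM in either library, 3.38% were (1.34% higher and 2.04% lower). A smaller threshold was therefore used beside it, an FPKM ratio of at least 1.5 in either direction with a counting interval that leaves out 1. By that rule 8 of the 43 genes with an annotated length, or 18.6%, were lower, against 8.90% of all 11387 genes with a length. Higher were 2 of 43, or 4.65%, against 7.16% of all genes. The median log2 ratio of the 44 genes was -0.07, and that of all genes was -0.05.

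These counts depended on the scaling between the libraries. The knockout values summed to 683884 FPKM and the wild-type values to 750631. With the knockout values multiplied by 1.10 to equal sums, the median log2 ratio of all genes moved to 0.07, and 4 members were lower and 5 higher by the 1.5-fold rule. These were 9.09% and 11.4% of the 44 members with a length, against 5.83% lower and 11.02% higher of all genes at that scaling. Abcg2, Abcg8 and Slc28a1 were among the 4 that remained lower.

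**Figure D2:**
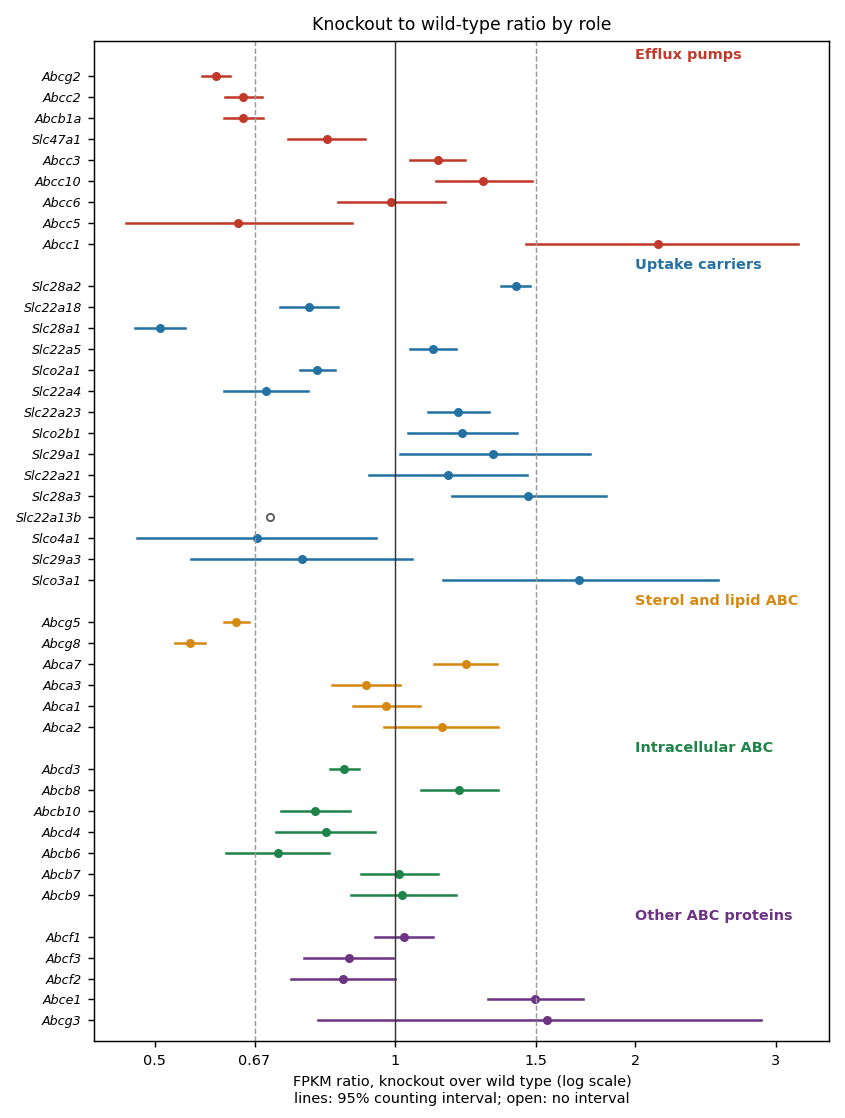
FPKM ratio of the knockout over the wild-type library (log scale) for 42 of the 44 compared genes, with 95% counting intervals as lines, 1 library per genotype, and dashed lines at 1.5-fold either way. The intervals of Abcg2, Abcg5, Abcg8 and Slc28a1 lie wholly left of the lower dashed line, and the widest intervals belong to genes of few fragments such as Abcc1 and Abcg3.

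Among the efflux pumps, the 3 most abundant were all lower in the knockout library. Abcg2, which encodes the breast cancer resistance protein BCRP (chromosome 6, 58584523 to 58695676, plus strand, mm10), was at 106 FPKM in the knockout library and 178 in the wild-type library. The ratio was 0.597, with a counting interval of 0.573 to 0.621. Abcc2, which encodes MRP2, the apical exporter of glucuronide and glutathione conjugates (chromosome 19, 43782192 to 43840740, plus strand), was at 51.3 FPKM in the knockout library and 79.5 in the wild-type library. Its ratio was 0.646 (0.613 to 0.681).

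Abcb1a, 1 of the 2 mouse genes for P-glycoprotein (chromosome 5, 8660077 to 8748575, plus strand), was at 44.4 FPKM in the knockout library and 68.9 in the wild-type library. The ratio was 0.645 (0.610 to 0.682). These 3 ratios lay close to each other, and all 3 genes encode pumps of the apical membrane. The annotation places a gene of the opposite strand, Gm42686, over 10.1% of the exonic bases of Abcb1a, and the sources used here do not say whether counting used strand. Its neighbour and close paralog Abcb1b was at 0.143 FPKM in the knockout library and 0.0248 in the wild-type library, about 6 and 1 fragments.

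Of the other 6 efflux pumps compared, 3 had ratios above 1 and 3 below. Abcc3, which encodes the basolateral conjugate pump MRP3, was at 28.4 FPKM in the knockout library and 25.1 in the wild-type library, a ratio of 1.13 (1.04 to 1.22). Abcc3 was taken as a reference after its value was seen. Of the 5 efflux pumps with a mean of at least 20 FPKM, it was the only such pump with a ratio above 1. Set against Abcc3 within each library, which no scaling between libraries can change, Abcg2 stood at 3.75 times Abcc3 in the knockout library and at 7.10 times in the wild-type library. The corresponding figures were 1.81 and 3.17 for Abcc2, and 1.56 and 2.74 for Abcb1a. Slc47a1, the proton-coupled cation exporter MATE1, was at 24.1 FPKM in the knockout library and 29.4 in the wild-type library (ratio 0.821, 0.735 to 0.918).

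Abcc10 was at 10.7 FPKM in the knockout library and 8.30 in the wild-type library, and Abcc6 at 7.30 and 7.38. Abcc5, an exporter of cyclic nucleotides, was low and past 1.5-fold lower, at 2.01 FPKM in the knockout library and 3.16 in the wild-type library (ratio 0.635, 0.460 to 0.883). Abcc1, which encodes the leukotriene and glutathione conjugate pump MRP1, was past 1.5-fold higher, at 1.41 FPKM in the knockout library and 0.663 in the wild-type library. That rested on about 89 and 40 fragments and gave a ratio of 2.13 (1.46 to 3.20). The 6 efflux pumps under 1 FPKM in both libraries, among them Abcc4, Abcb4 and Slc47a2, had at most 21 fragments in the knockout library.

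The sterol and lipid transporters held the most abundant member of all, Abcg5. Abcg5 and Abcg8 encode the 2 partners of the sterol pump, which works only as a heterodimer. Abcg5 (chromosome 17, 84658234 to 84683011, minus strand) was at 236 FPKM in the knockout library and 374 in the wild-type library. Its ratio was 0.633 (0.611 to 0.655). Abcg8 (chromosome 17, 84676302 to 84700333, plus strand) was at 124 FPKM in the knockout library and 224 in the wild-type library, with a ratio of 0.553 (0.531 to 0.577).

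Both partners of the pump were thus lower, and Abcg8 by slightly more. Within a library Abcg5 stood at 1.91 times Abcg8 in the knockout library and at 1.67 times in the wild-type library, a quotient of 1.14 with a counting interval of 1.08 to 1.21. The annotated exons of the pair share 82 bases on opposite strands, 3.02% of the bases of Abcg5 and 2.19% of those of Abcg8.

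RefSeq gives Abcg8 more than one start. The pair is read in opposite directions, and the Abcg8 start nearest to Abcg5, at 84683121, is 110 bases from that of Abcg5 at 84683011, so that 1 stretch of sequence lies before both. Another Abcg8 start, at 84676302, lies within Abcg5, and which start was used cannot be read from values per gene. It is shown because these were the 2 highest members in the wild-type library and were lower together. The sequence is the RefSeq promoter entry of Abcg5, chr17:84682962-84683261 on GRCm38.p6, minus strand, 250 bases before the start and 50 after it, 5′ to 3′, with matches to GATAA on either strand in capitals.
Abcg5 promoter: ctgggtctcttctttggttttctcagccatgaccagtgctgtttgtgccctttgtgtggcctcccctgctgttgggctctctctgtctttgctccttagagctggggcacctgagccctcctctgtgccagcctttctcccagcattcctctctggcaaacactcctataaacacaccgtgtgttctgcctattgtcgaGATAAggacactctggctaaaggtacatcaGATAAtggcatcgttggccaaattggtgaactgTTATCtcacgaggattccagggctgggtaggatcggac
GATAA, searched on both strands, is the core bound by GATA factors. A match stood in the promoters of 9 of the 32 compared genes with a RefSeq promoter entry, 28.1%, and in those of 28.4% of all 27025 genes in the table. Besides Abcg5 and Abcg8 the 9 included Abcg2 and Abcc2, but also Slc28a2 and Slco2b1. The nuclear receptor half-site AGGTCA, searched on both strands, stood in 6 of the 32 promoters (18.8%, against 18.1% of all), among them those of Abcg2 and Abcc2. A match is a description of letters, and both shares among the members were near those of all promoters.

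The other 4 compared ABC genes of sterol and lipid transport were within 1.5-fold. Abca1, which loads cholesterol onto apolipoprotein A-I at the basolateral side, was at 8.93 FPKM in the knockout library and 9.16 in the wild-type library (ratio 0.975, 0.885 to 1.07). Abca7, a lipid transporter known for its role in phagocytosis, was at 17.9 FPKM in the knockout library and 14.6 in the wild-type library (1.23, 1.12 to 1.34). Abca3, whose protein is known for surfactant lipid transport in the lung, was at 13.5 and 14.8 FPKM, and Abca2 at 4.38 and 3.83. Under 1 FPKM, Abcg1, the cholesterol exporter of macrophages, was at 0.792 FPKM in the knockout library and 0.658 in the wild-type library. Abca5, a lysosomal family member, was at 0.184 FPKM in the knockout library and 0.573 in the wild-type library, about 14 and 42 fragments (ratio 0.321, 0.162 to 0.600).

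Of the 8 ABC transporters of mitochondria, peroxisomes and lysosomes, none was past 1.5-fold. Their log2 ratios ran between -0.45 for Abcb6 and 0.26 for Abcb8, with a median of -0.10. Abcd3, the peroxisomal transporter of branched fatty acyl-CoA and bile acid intermediates, was the most abundant, at 138 FPKM in the knockout library and 160 in the wild-type library (ratio 0.864, 0.830 to 0.900).

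Abcb8, a protein of the inner mitochondrial membrane, was at 26.6 FPKM in the knockout library and 22.15 in the wild-type library. Abcb10, a mitochondrial protein needed for haem synthesis in red cell precursors, was at 17.98 and 22.65 FPKM. Abcb6, a porphyrin transporter, was at 11.3 and 15.8 FPKM, but a second gene annotated on the same strand, Gm29253, covers 55.2% of its exonic bases, so its value is uncertain. Among the ABC proteins that transport nothing, Abce1, a factor of ribosome recycling, was at 15.5 FPKM in the knockout library and 10.3 in the wild-type library (ratio 1.497, 1.31 to 1.72), just inside the 1.5-fold limit. Abcf1, a factor of translation initiation, was at 39.7 and 38.7 FPKM.

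The uptake carriers went both ways, with 8 log2 ratios above 0 and 8 below. The nucleoside carriers showed the widest split. Slc28a1, which encodes the sodium-coupled pyrimidine nucleoside carrier CNT1 (chromosome 7, 81114799 to 81170416, plus strand), was at 43.7 FPKM in the knockout library and 86.2 in the wild-type library. Its ratio, 0.507 (0.472 to 0.545), was the lowest of the 44 genes. Slc28a2, which encodes the purine-preferring CNT2 (chromosome 2, 122426477 to 122461137, plus strand), was at 155 FPKM in the knockout library and 110 in the wild-type library, a ratio of 1.42 (1.36 to 1.48).

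Slc28a1 and Slc28a2 were thus apart in opposite directions. Within a library, Slc28a1 stood at 0.282 times Slc28a2 in the knockout library and at 0.787 times in the wild-type library, a quotient of 0.358 (0.3299 to 0.389) that does not depend on the scaling between libraries. The broad-range carrier gene Slc28a3 was at 4.88 FPKM in the knockout library and 3.32 in the wild-type library (1.47, 1.18 to 1.84). Slc29a1, which encodes the equilibrative carrier ENT1, was at 6.91 and 5.21 FPKM (1.33, 1.01 to 1.76), and Slc29a3, which encodes the lysosomal ENT3, at 1.51 and 1.98 FPKM.

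The summed level of the 3 Slc28 genes was 204 FPKM in the knockout library and 199 in the wild-type library, so the sum was near equal while its make-up differed.

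Among the organic cation and carnitine carriers, Slc22a4 and Slc22a5 are neighbours on chromosome 11 that encode the ergothioneine carrier OCTN1 and the carnitine carrier OCTN2. Slc22a4 (53983123 to 54028090, minus strand) was at 22.4 FPKM in the knockout library and 32.5 in the wild-type library (0.689, 0.611 to 0.778). Slc22a5 (53864542 to 53891660, minus strand) was at 68.3 FPKM in the knockout library and 61.2 in the wild-type library (1.12, 1.04 to 1.19).

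These neighbours therefore differed in direction on the deposited scale, and within a library Slc22a4 stood at 0.328 times Slc22a5 in the knockout library and at 0.530 times in the wild-type library. Slc22a21, which lies between them and encodes the mouse carnitine carrier Octn3, was at 5.44 and 4.66 FPKM (1.17, 0.928 to 1.46). Slc22a18, an imprinted gene whose product resembles cation carriers, was at 72.9 FPKM in the knockout library and 93.5 in the wild-type library (0.780, 0.718 to 0.847). Slc22a23, a gene with no settled substrate, was at 19.9 and 16.6 FPKM, and Slc22a13b, which has no annotated length here, at 2.69 and 3.87 FPKM.

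Of the OATP family, Slco2a1, the prostaglandin carrier, was the most abundant, at 40.8 FPKM in the knockout library and 51.1 in the wild-type library (ratio 0.799, 0.759 to 0.841). Slco2b1, which encodes the intestinal drug carrier OATP2B1, was at 8.99 FPKM in the knockout library and 7.42 in the wild-type library (1.21, 1.04 to 1.42). Slco3a1 was past 1.5-fold higher, at 2.19 FPKM in the knockout library and 1.29 in the wild-type library, about 74 and 42 fragments (1.70, 1.15 to 2.54). Slco4a1, a carrier of thyroid hormone, was at 2.13 and 3.17 FPKM (0.671, 0.475 to 0.945), just inside the 1.5-fold limit.

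Efflux pumps and uptake carriers were then set side by side. By the 1.5-fold rule 4 of 9 efflux pumps were lower and 1 was higher, against 2 lower and 1 higher of the 15 uptake carriers with a length. Of all 11387 genes with a length, 8.90% were lower and 7.16% higher. The counts by role depended on the scaling between the libraries. With each of the 3 scalings tried, Abcg2 was the only efflux pump still lower, and Slc28a2 and Slc28a3 were added as higher uptake carriers. The calls of lower uptake carriers did not change. The median log2 ratio was -0.27 over the 9 efflux pumps and -0.04 over the 16 uptake carriers, a difference of -0.23. With the middle gene or pair of genes of each role moved to the ends of its counting interval, the difference ran from -0.58 to 0.10, and with 1 library per genotype it was not tested. The sign of the difference was the same under all 9 alternative settings tried, which gave -0.01 to -0.43. The sign of the uptake median itself was not, since it was 0.14 with equal sums, 0.13 with equal upper quartiles and 0.11 with the median of ratios, where the efflux median was -0.15, -0.15 and -0.19. Several of the 9 settings could hardly have changed the sign of the difference. The 3 scalings shift all genes by nearly the same amount, and leaving out members of few fragments gave -0.23 again. Without a filter, 21 of the 48 uptake carriers were at 0 in both libraries, and the uptake median was 0.

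**Figure D3:**
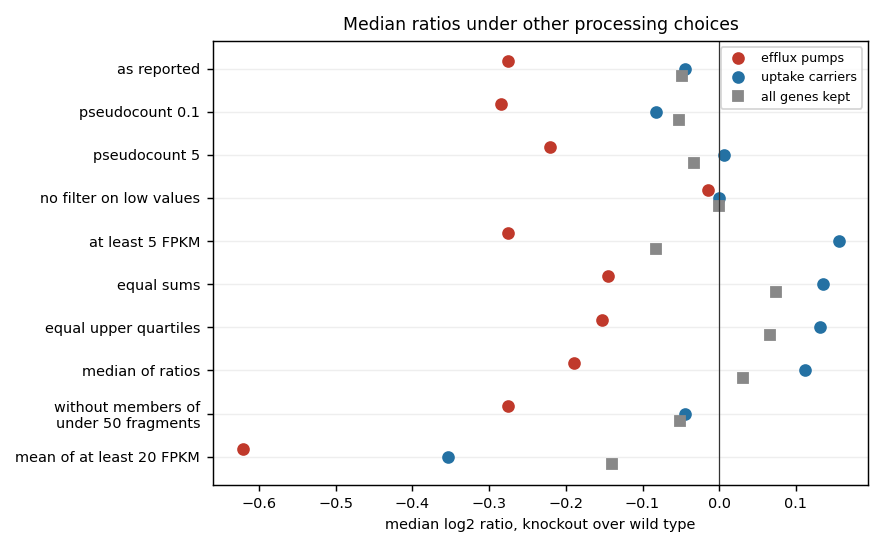
Median log2 ratio of knockout over wild-type FPKM for efflux pumps, uptake carriers and all genes compared under each setting, 1 row per setting and 1 library per genotype. The efflux median lies left of the uptake median in every row, by 0.01 without a filter on low values and by more in the others.

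The summed level of the 15 efflux pumps was 277 FPKM in the knockout library and 401 in the wild-type library. That of the 48 uptake carriers was 502 FPKM in the knockout library and 551 in the wild-type library. The efflux sum was thus 0.552 times the uptake sum in the knockout library and 0.728 times in the wild-type library, a quotient of 0.758 with a counting interval of 0.733 to 0.783. These sums are carried by a few genes, and Abcg2, Abcc2 and Abcb1a make up most of the efflux sum.

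Abundance was the other property along which the members differed. The 19 members with a mean of at least 20 FPKM over both libraries, a limit chosen after their values were seen, had a median log2 ratio of -0.32, and 13 were below 0. By the 1.5-fold rule 7 of these 19, or 36.8%, were lower and 0 higher, against 9.50% lower and 2.97% higher of all genes at that level. These counts hold for the deposited scaling. With each of the 3 other scalings, Abcb1a, Abcc2 and Abcg5 were no longer counted as lower, and Slc28a2 was counted as higher. All genes at that level also tended down, with a median of -0.14. The 25 less abundant members compared had a median of 0.03. In that more abundant set the median was -0.62 over 5 efflux pumps and -0.35 over 7 uptake carriers.

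**Figure D4:**
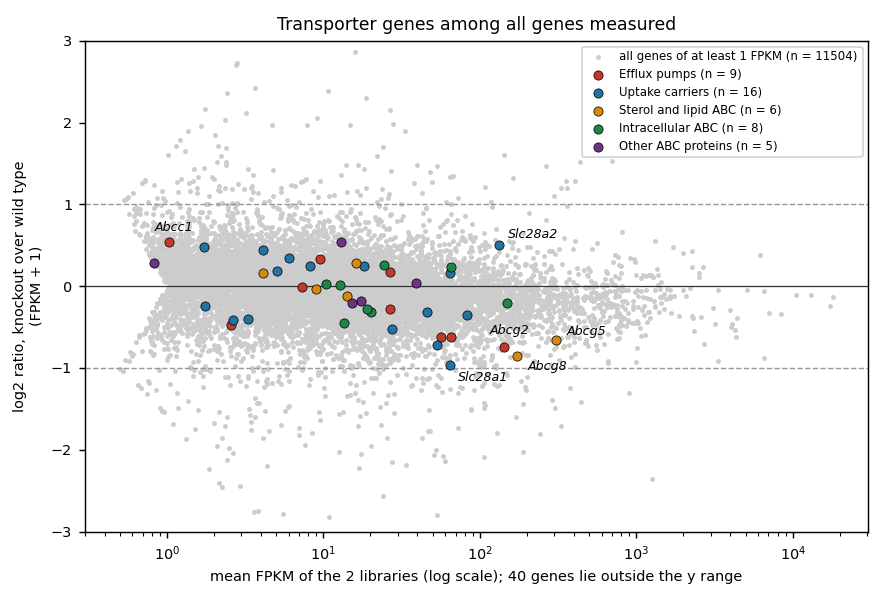
Log2 ratio of knockout over wild-type FPKM + 1 against the mean FPKM of both libraries (log scale), with all 11504 genes compared in grey and the 44 transporter genes coloured by role, 1 library per genotype. All transporter points lie between the dashed 2-fold lines, and the abundant ones at the lower right are Slc28a1, Abcg2, Abcg8 and Abcg5.

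Related genes outside the families were read from lists that were chosen with earlier results of these data known, so they are no independent check. Genes known to be induced by the xenobiotic receptors PXR and CAR, which also control several of the pumps, were lower as a list. Of 14, 13 had log2 ratios below 0, 10 were past 1.5-fold lower and 7 past 2-fold lower, with a median of -1.01 beside -0.05 for all genes. Of all genes compared, 56.0% were below 0 and 2.04% past 2-fold lower. Of those with a length, 8.90% were past 1.5-fold lower. Among genes with a mean of at least 20 FPKM, 70.4% were below 0 and 9.50% past 1.5-fold lower. Cyp3a11, the main intestinal P450, was at 517 FPKM in the knockout library and 1284 in the wild-type library. Cyp2c29 was at 1.44 and 21.4 FPKM, Cyp2c55 at 21.6 and 98.4, and Cyp2c65 at 102 and 279.

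The genes of the 2 receptors differed less between the libraries than the median of that list. Nr1i2, which encodes PXR and is named here after its value was seen, was at 74.9 FPKM in the knockout library and 59.8 in the wild-type library (ratio 1.25, 1.17 to 1.35). Nr1i3, which encodes CAR, was past 1.5-fold lower, at 27.0 FPKM in the knockout library and 41.4 in the wild-type library (0.651, 0.565 to 0.748). Over 16 xenobiotic and sterol sensors, 13 were below 0 (81.25%), with a median of -0.37. Of all genes compared, 56.0% were below 0, and 70.4% of those with a mean of at least 20 FPKM. By the 1.5-fold rule 2 sensors were lower and 0 higher, against 8.90% and 7.16% of all genes with a length. Past 2-fold lower was 1 of the 16, Nr0b2, against 2.04% of all genes. Nr0b2, which encodes the bile acid-induced repressor SHP, was at 4.13 and 14.9 FPKM, Nfe2l2 at 94.8 and 134, and the most abundant, Hnf4a, at 210 and 260.

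Genes induced by the sterol receptor LXR, which also controls Abca1, Abcg5 and Abcg8, had 3 of 6 below 0 and a median of 0.01. Smpdl3a was at 70.8 FPKM in the knockout library and 150 in the wild-type library, Scd2 at 17.7 and 10.955, and the most abundant, Lpcat3, at 205.0 and 205. Other carriers of bile acids, sterols, peptides and vitamins had 13 of 16 below 0, a median of -0.27, 3 past 1.5-fold lower and 0 higher. Of all genes, 56.0% were below 0, 8.90% past 1.5-fold lower and 7.16% higher. The fatty acid receptor gene Cd36 was at 44.3 FPKM in the knockout library and 105.9 in the wild-type library, and the vitamin C carrier gene Slc23a1 at 16.999 and 26.2. The most abundant of them by the mean of both libraries, Slc51b, a subunit of the basolateral bile acid exporter, was at 396 FPKM in the knockout library and 496 in the wild-type library. The cholesterol uptake gene Npc1l1, named here after its value was seen, was at 449 FPKM in the knockout library and 403 in the wild-type library (1.11, 1.09 to 1.14). The peptide transporter genes Tap1 and Tap2 and the chloride channel gene Cftr, ABC genes that carry other symbols, had ratios of 1.07, 1.08 and 0.967.

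Marker genes of cell types differed between the same libraries and are given beside these results. All 11 enterocyte genes were below 0, with a median of -0.14 and summed levels of 60527 FPKM in the knockout library and 68389 in the wild-type library. That median was the same as the -0.14 of all genes with a mean of at least 20 FPKM, of which 70.4% were below 0. Of the 8 distal intestine genes 7 were below 0 (median -0.44), and of the 7 proximal ones all 7 (median -0.33), and these lists hold genes of PXR control and of bile acid transport that were also counted above. Of all genes compared, 44.0% were above 0, and of those with a mean under 20 FPKM 51.8% were. Proliferation genes were above 0 in 8 of 8, with a median of 0.55 and summed levels of 156 FPKM in the knockout library and 126 in the wild-type library. Fibroblast and smooth muscle genes were above 0 in 11 of 11 (median 1.48, summed levels 53.7 and 12.8 FPKM), and macrophage and dendritic cell genes in 10 of 11 (median 0.52, summed levels 107 and 82.4 FPKM). Of the goblet cell genes 4 of 6 were below 0 (median -0.04), of the Paneth cell genes 2 of 5 (median 0.28), and of the T cell genes 3 of 7 (median 0.06). Of the 6 endothelial genes 3 reached 1 FPKM, 2 of them above 0 (median 0.47), and the summed levels of the 6 were 6.13 FPKM in the knockout library and 2.40 in the wild-type library. Among these, Plvap was at 3.77 FPKM in the knockout library and 0.454 in the wild-type library, Tek was at 0.156 and 1.01, and Kdr was at 0.132 and 0. The part of any of these in the transporter values was not tested.

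**Figure D5:**
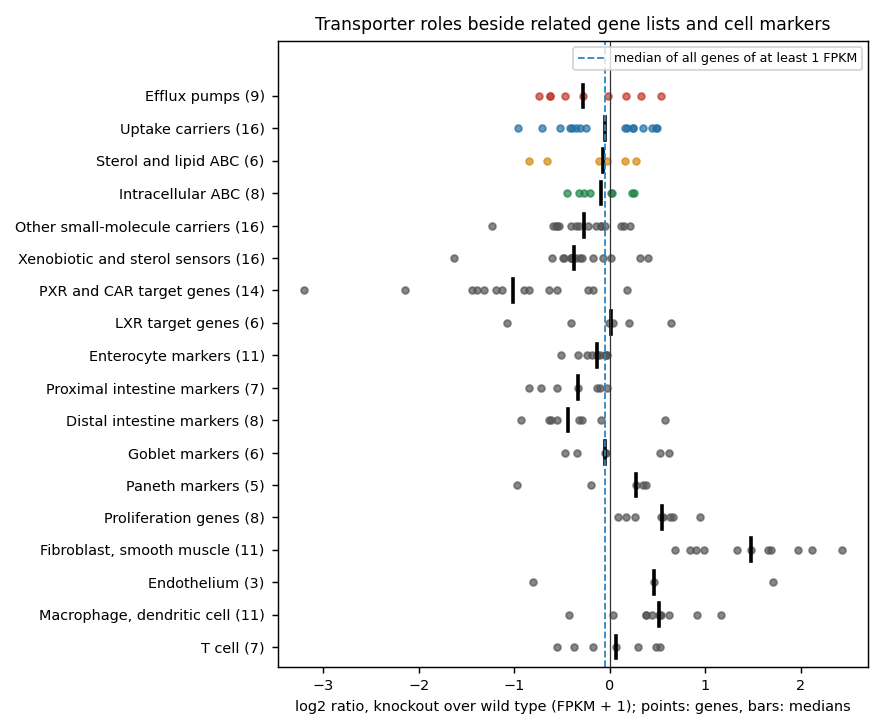
Log2 ratio of knockout over wild-type FPKM + 1 for each compared gene of the transporter roles, of related gene lists and of cell type marker lists, with bars at the medians, a dashed line at the median of all genes and the number of genes in brackets. Genes induced by PXR and CAR extend furthest to the left, with a median of -1.01, and fibroblast and smooth muscle genes furthest to the right, with a median of 1.48.

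Because the mice lacked miR-215, the members were also searched for its seed match. miR-215-5p (chr1:185313610-185313630, plus strand, mm10) and miR-192-5p (chr19:6264857-6264877, plus strand) share the seed UGACCUA at bases 2 to 8, which is in capitals in the mature RefSeq sequences.
mmu-miR-215-5p: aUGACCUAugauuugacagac
mmu-miR-192-5p: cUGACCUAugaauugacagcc
The complementary heptamer TAGGTCA stood in the longest annotated 3′ UTR of 2 of the 43 compared members with an annotated UTR, 4.65%, and of 6.85% of all 10983 compared genes with one. The 2 members were Abcc3 (chromosome 11, from base 291 of a UTR of 372 bases) and Slco2a1 (chromosome 9, from base 724 of 4572), shown with 11 bases on either side and the match in capitals.
Abcc3: ccagggactgcTAGGTCAgtctgtcccgg
Slco2a1: accagcaaggcTAGGTCAtccaagcactg
Abcc3 was at 28.4 FPKM in the knockout library and 25.1 in the wild-type library, and Slco2a1 at 40.8 and 51.1 FPKM, so these 2 differed in direction. Over all compared genes the median log2 ratio was -0.003 with the match and -0.06 without it. None of the 10 members past 1.5-fold held the match in its longest annotated UTR. With the match in 6.85% of all genes, few or none among 10 genes would hold it, so that count says little. Only the heptamer to bases 2 to 8 was searched.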

How the data were processed

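The 2 libraries came from miR-215-/- and miR-215+/+ small intestinal epithelia, 1 from each. Per the labels' protocols, the RNeasy Mini kit served for extraction and the TruSeq stranded mRNA kit for the libraries. The deposited values are FPKM that the authors made from their reads, 1 per gene and library. The submitters' processing notes name Cuffnorm 2.2.1, TopHat2 2.0.13, SAMtools 0.1.19, Bowtie2 2.2.3 and mm10. For the annotation, settings, use of strand and scaling, nothing is stated in the sources used here, and the unit was inferred from the tool, the layout and the values.

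Members and gene lists were chosen with earlier results of these data known. Genes that reached 1 FPKM in either library were compared as log2(knockout + 1) minus log2(wild type + 1). Without counts in the files, count models were left out. Among 602 genes under 0.1 FPKM in both libraries, 246 shared 1 ratio, 0.963, the relative worth of 1 fragment. From 438 single-transcript coding genes under 0.3 FPKM, the worth of 1 fragment over 1 kb came to 0.108 FPKM in the knockout library, through that ratio, and 0.112 in the wild-type library. Fragment numbers used the median length of RefSeq-linked GENCODE M21 transcripts (GRCm38), matched for 99 of the 100 members, and the calculation was tested on simulated data. Within-library quotients have a normal approximation on the log scale as their interval. Genes named by rule were members past either size rule or among the 4 most abundant of 4 roles, and from each related list the most abundant and up to 3 of largest ratio. Other members named were chosen after their values were seen. The values of 2 compared members are not reported here, and both are included in every count, sum and median. Alternatives were the pseudocount, the filter, 3 scalings, the transcript length and the UTR. Python 3.11.15, SciPy 1.17.1 and pandas 2.3.3 were used.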

Additional observations from a re-analysis of the deposited data

How the results depend on the processing

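On the log2 scale with an added pseudocount, no member was 2-fold apart under any of the 9 alternative settings, of which 1, the limit of at least 20 FPKM on the mean, was chosen after seeing the data, as was the 1.5-fold count with its interval. With equal sums, equal upper quartiles or the median of ratios, 5 members were past 1.5-fold higher and 4 lower in place of 2 and 8. Higher calls were then 11.4% of members, against 9.55% to 11.02% of all genes, and lower calls 9.09% of members, against 5.83% to 6.70% of all genes. Abcb1a, Abcc2, Abcc5 and Abcg5 were no longer counted as lower, and Abce1, Slc28a2 and Slc28a3 were added as higher. With a minimum of 5 FPKM, or the 20 FPKM limit, 0 members were higher and 7 lower, since Abcc1, Slco3a1 and Abcc5 fell under the limit.

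The median of the efflux pumps was -0.0147 without a filter on low values and -0.62 with the 20 FPKM limit, which leaves 5 pumps. That of the uptake carriers was 0.16 with a minimum of 5 FPKM and -0.35 with the 20 FPKM limit. That of the intracellular ABC transporters was 0.0327 with equal sums, 0.0257 with equal upper quartiles and 0.0130 with the 20 FPKM limit, and that of the lipid ABC transporters was -0.75 there, over 2 genes. Of the 44 compared members, the sign changed under these scalings for 3, all to above 0: Abca1 and Abcc6 under each of the 3, and Abca3 with equal sums (0.01) and equal upper quartiles (0.00). With the shortest annotated transcript, the counting intervals of Abcc1, Abcc5 and Slco3a1, as of Abcb8, Slc22a5 and Slc47a1, included 1. No paired analysis was possible because each genotype has 1 library, and for the same reason no replicate could be left out.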
